A study of Mus musculus with 6 samples.

Results

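The genes described here are Trp53, which encodes the transcription factor p53, and 9 genes that p53 is known to switch on directly: Mdm2, Cdkn1a, Ccng1, Zmat3, Trp53inp1, Phlda3, Aen, Tnfrsf10b and Perp. They were picked by gene symbol, and all 10 were present among the 17060 genes listed in the files. RNA was sequenced from bone marrow cells of wild-type mice that had been depleted of cells carrying lineage markers and then grown in medium with erythropoietin (EPO), the hormone that drives red cell production. For 48 hours, 3 cultures received NUP-17d, a small-molecule inhibitor of pleckstrin-2 (Plek2), and 3 received its vehicle, DMSO. The labels call the cells erythroblasts and give neither a dose nor the age of the mice. They do not say whether the 3 cultures of a group came from different mice, so the p-values below measure only the spread between these samples.

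In unstressed cells p53 protein is made continuously and destroyed quickly, because Mdm2, itself a p53 target, attaches ubiquitin to it. Damage to DNA, faulty ribosome assembly or oncogenic signalling stabilises the protein, which then binds pairs of a short repeat, the decamer of the p53 response element, and raises transcription of genes for cell cycle arrest, DNA repair and cell death. The amount of p53 protein is therefore set largely after transcription, and the RNA of its targets is the usual readout of its activity. In erythroid progenitors p53 is best known from anaemias with impaired ribosome production, in which its activation stops red cell formation.

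To show where p53 could bind near these genes, the RefSeq promoter windows of GRCm38.p6 (mm10) were searched on both strands for the p53 consensus decamer. Each window ran from 250 bases before to 50 bases after a transcription start. Windows were given for 6 of the 10 genes, and 5 of those genes had at least 1 match, while Phlda3 had none in its window. The decamer was found in 8.36% of all 32851 windows, and a complete site, meaning 2 decamers with at most 13 bases between them, in 0.0731%. The stretches that follow hold the matches upstream of the start in Cdkn1a, Trp53, Mdm2 and Ccng1, and capitals mark the matching decamers, read 5′ to 3′ along the gene's own strand.
Cdkn1a, chr17:29090892-29090951, plus strand: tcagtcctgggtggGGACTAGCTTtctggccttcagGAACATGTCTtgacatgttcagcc
Trp53, chr11:69580274-69580303, plus strand: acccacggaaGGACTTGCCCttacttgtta
Mdm2, chr10:117710925-117710954, minus strand: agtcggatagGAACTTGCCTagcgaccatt
Ccng1, chr11:40755452-40755481, minus strand: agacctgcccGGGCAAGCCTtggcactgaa
By this search Cdkn1a was the gene of the group with a complete site, its 2 marked decamers being separated by 12 bases. Only exact matches were marked. The bases tgacatgttc, directly after the second marked decamer of Cdkn1a, differ from the consensus at their first base alone and stay in lower case. The marked pair is therefore not the only possible pairing of decamers in this stretch. The other stretches hold a single marked decamer each. In Ccng1 the bases agacctgccc, directly before the marked decamer, differ from the consensus at a single base and also stay in lower case. A pairing of decamers is therefore possible in that stretch as well. The match of Aen is not printed, since it lies upstream of one of its annotated starts but downstream of another. A match is a description of the sequence and does not show that p53 was bound in these cultures.

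The libraries held between 20076409 and 20419018 expected counts, and the composition of the RNA differed between the groups. Hemoglobin genes took 18.3% to 20.3% of the counts in the DMSO cultures and 11.8% to 13.1% in the NUP-17d cultures. Levels are therefore given as CPM, the counts of a gene relative to the library total, corrected for composition by the trimmed mean of M-values (TMM), which sets the bulk of genes equal. With it the median log2 fold change over the 12306 genes tested was 0.014, and scaling by library totals alone moved it to 0.28. All 10 erythroid markers fell, from a summed level of 115807 to 130856 CPM with DMSO to 64863 to 73134 CPM with NUP-17d, and 8 of the 10 still fell under library totals. Of the 7 megakaryocyte markers, 5 rose (summed level 449 to 496 against 519 to 539 CPM). Macrophage markers (2 higher and 2 lower of 9; 627 to 685 against 678 to 746 CPM), neutrophil markers (2 higher and 1 lower of 9; 3938 to 4106 against 4018 to 4298 CPM), mast cell and basophil markers (1 higher and 2 lower of 5 tested; 208 to 225 against 186 to 192 CPM) and lymphoid markers (1 lower of 7; 12.2 to 13.3 against 11.7 to 13.4 CPM) were less one-sided. Apart from the erythroid count under library totals, these are edgeR calls under TMM, by which 16.4% of all genes tested were higher and 18.9% lower. Under library totals 68.7% of all genes were higher and 5.34% lower. There 7 of 7 megakaryocyte, 6 of 9 macrophage, 8 of 9 neutrophil, 2 of 5 mast cell and basophil and 1 of 7 lymphoid markers were called higher. In these 5 lists 0 were called lower. No marker was at 0 in any culture. The part of these shifts in the results on p53 targets was not tested, and in bulk RNA fewer cells of a type and less RNA per cell cannot be told apart.

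To ask whether inhibiting Plek2 was accompanied by a p53 response, the 10 genes were compared between NUP-17d and DMSO. Relative to the bulk of genes, Trp53 and its targets Mdm2, Ccng1, Zmat3 and Aen fell slightly, by 7.32% to 16.5%, a direction that was not seen under library totals, and Tnfrsf10b, a death receptor gene, rose by 25.7%. Cdkn1a, the gene of the cell cycle inhibitor p21, differed by less than the test could call, as did Trp53inp1, Phlda3 and Perp. With edgeR's quasi-likelihood test and Benjamini-Hochberg adjustment over all genes, 1 of the 10 was called higher (16.4% of all genes tested were) and 5 lower (18.9% of all genes), with a median log2 fold change of -0.16 beside 0.014 over all genes. This split turned with the scaling. Under library totals alone 5 of the 10 were called higher (68.7% of all genes were) and 0 lower (5.34% of all genes), with a median of 0.11 beside 0.28 over all genes. The 5 genes were Mdm2, Cdkn1a, Trp53inp1, Phlda3 and Tnfrsf10b.

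**Figure D1:**
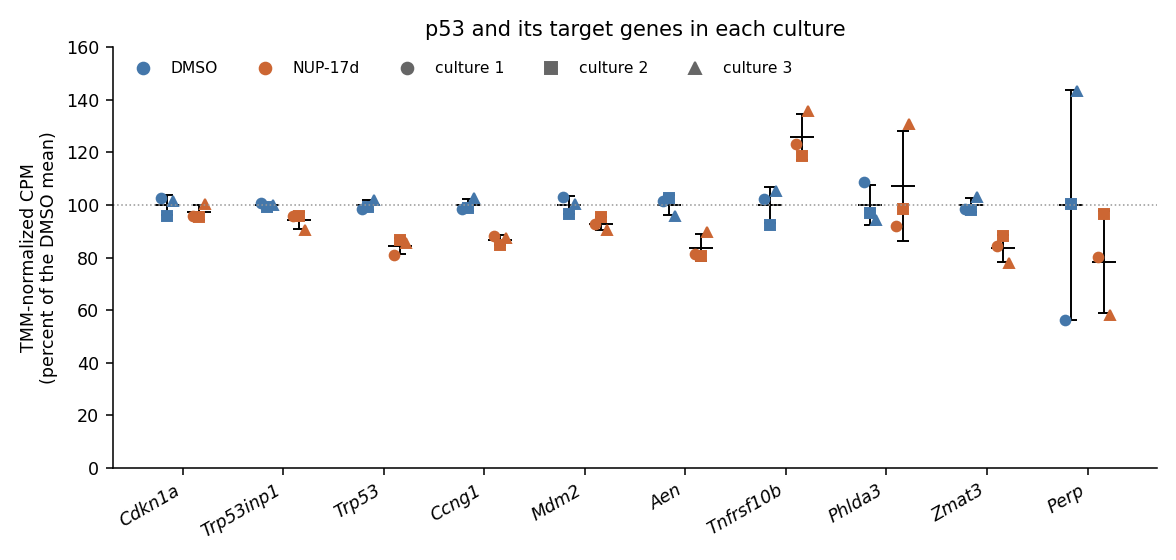
TMM-normalized CPM of Trp53 and 9 direct p53 targets in each culture, as a percentage of the gene's DMSO mean; symbols are cultures, and the bars are the mean ± SD of each group (n = 3). The DMSO and NUP-17d points do not overlap for Trp53, Mdm2, Ccng1, Zmat3, Aen and Trp53inp1, which lie lower with NUP-17d on this scale, or for Tnfrsf10b, which lies higher, whereas under library totals alone each of the 10 genes but Perp has a log2 fold change above 0.

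Measured per transcript length, the 10 genes covered a wide range of levels, which kept its order under NUP-17d. In DMSO cultures the length-normalized level (FPKM divided by the TMM factor) was highest for Cdkn1a, at 159 ± 5.71 (SD, n = 3), and next for Trp53inp1, at 155 ± 0.927, and these neighbours overlapped. Trp53 itself followed at 125 ± 2.38, then Ccng1 at 70.8 ± 1.51, Mdm2 at 58.2 ± 1.77 and Aen at 18.4 ± 0.618. The weakly expressed genes were Tnfrsf10b at 5.49 ± 0.356, Phlda3 at 4.11 ± 0.316 and Zmat3 at 3.87 ± 0.102, the latter pair overlapping, and Perp at 0.407 ± 0.181. Thus, of the 9 targets chosen, the arrest gene and an autophagy and death cofactor had the most abundant transcripts, and Perp, which encodes a desmosomal membrane protein, was close to undetected. With NUP-17d the levels ran in the same order, from 155 ± 4.27 for Cdkn1a and 146 ± 4.97 for Trp53inp1 to 0.324 ± 0.0792 for Perp, and no neighbours overlapped.

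**Figure D2:**
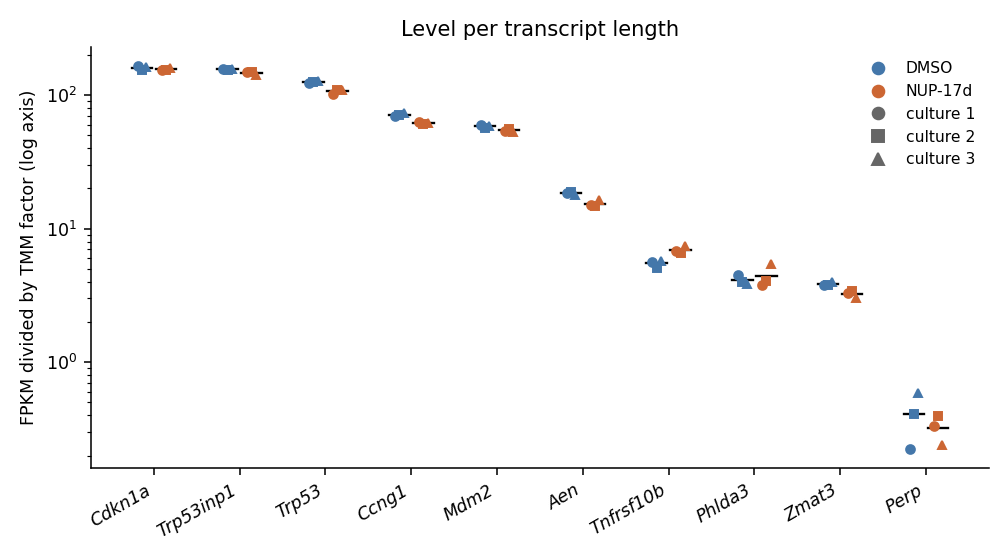
Length-normalized level (FPKM divided by the TMM factor, log axis) of the 10 genes, ordered by the DMSO mean; symbols are cultures and bars are group means. Cdkn1a and Trp53inp1 lie at the top with DMSO means of 159 and 155 and Perp at the bottom at 0.407, and the order is the same with NUP-17d.

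Trp53 (Entrez 22059, chr11:69580348-69591873) encodes p53. Its level was 223, 225 and 231 CPM in the DMSO cultures and 183, 196 and 194 CPM in the NUP-17d cultures. Every NUP-17d culture lay below every DMSO culture. The TMM log2 fold change was -0.25 (SE 0.0359, edgeR adjusted p = 4.43e-06), against 0.022 under library totals, where it was not called. Mdm2 (Entrez 17246, chr10:117688875-117710758), the ubiquitin ligase that limits p53, was at 187, 175 and 182 CPM with DMSO and at 168, 173 and 164 CPM with NUP-17d. These groups were close but did not overlap. The TMM log2 fold change of Mdm2 was -0.11 (SE 0.0363, edgeR adjusted p = 0.0199), and 0.16 under library totals. The call of Mdm2 was lost without DMSO culture 1 (log2 fold change -0.088, edgeR adjusted p = 0.0921), without DMSO culture 3 (-0.11, 0.0609) or without NUP-17d culture 3 (-0.094, 0.0716), and its adjusted p ran from 0.00064 to 1 over all alternatives. The lowest of these came under library totals, where Mdm2 was called higher and not lower.

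The genes Cdkn1a and Ccng1 act on the cell cycle. Cdkn1a (Entrez 12575, chr17:29090979-29100722), whose window holds the complete site printed above, was at 315, 294 and 312 CPM with DMSO and at 294, 293 and 308 CPM with NUP-17d. The groups overlapped, and the TMM log2 fold change of -0.041 (SE 0.0361, edgeR adjusted p = 0.401) had a 95% interval from -0.12 to 0.033, with 0.23 under library totals. Ccng1 (Entrez 12450, chr11:40748552-40755309) encodes cyclin G1, which recruits a phosphatase to Mdm2. It was at 248, 249 and 258 CPM with DMSO and at 222, 213 and 220 CPM with NUP-17d. The NUP-17d cultures were all lower, with a TMM log2 fold change of -0.20 (SE 0.0345, edgeR adjusted p = 3.31e-05), and 0.062 under library totals. The difference between the changes of Ccng1 and Cdkn1a was itself not tested.

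Zmat3 (Entrez 22401, chr3:32334792-32365665) encodes a zinc finger protein that binds RNA and acts on splicing. Its level was 30.3, 30.2 and 31.7 CPM with DMSO and 25.9, 27.1 and 24 CPM with NUP-17d. The groups did not overlap, and the TMM log2 fold change was -0.26 (SE 0.0562, edgeR adjusted p = 0.00061), with 0.0073 under library totals. Aen (Entrez 68048, chr7:78895927-78911209) encodes a nuclease that digests DNA during apoptosis. It was at 47.3, 47.9 and 44.7 CPM with DMSO and at 37.9, 37.5 and 41.8 CPM with NUP-17d. All NUP-17d cultures were lower, with a TMM log2 fold change of -0.26 (SE 0.0499, edgeR adjusted p = 0.000197), and 0.011 under library totals.

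Tnfrsf10b (Entrez 21933, chr14:69767472-69784411) encodes the mouse receptor for the death ligand TRAIL and was the gene of the group that rose. Its level was 18.2, 16.4 and 18.7 CPM with DMSO and 21.9, 21.1 and 24.1 CPM with NUP-17d. The groups were separated under both scalings, with log2 fold changes of 0.33 under TMM (SE 0.0679, edgeR adjusted p = 0.000364) and 0.60 under library totals. It was called higher without any single culture, at log2 fold changes of 0.27 to 0.37, but not when a minimum fold of 1.2 was required (adjusted p = 0.452; range over all alternatives 4.94e-08 to 0.452).

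Trp53inp1 (Entrez 60599, chr4:11156441-11174379) encodes a p53 cofactor that also acts in autophagy. It was at 859, 848 and 853 CPM with DMSO and at 819, 818 and 772 CPM with NUP-17d. The groups did not overlap, but the difference missed the threshold, with a TMM log2 fold change of -0.087 (SE 0.0349, edgeR adjusted p = 0.0541, 95% interval -0.16 to -0.015), and 0.18 under library totals. Its call turned with small changes of method: DESeq2 gave -0.092 (adjusted p = 0.0166), median-ratio size factors in edgeR gave -0.091 (0.0468), leaving out the hemoglobin genes gave -0.087 (0.0492) and leaving out NUP-17d culture 1 gave -0.10 (0.0481), with a range over all alternatives of 3.38e-05 to 1. The lowest of these, 3.38e-05, came under library totals, where Trp53inp1 was called higher and not lower. Its DMSO cultures were the least variable of the 10 genes, with a coefficient of variation of 0.644%.

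Phlda3 and Perp were measured too weakly for small differences. Phlda3 (Entrez 27280, chr1:135766085-135769134) encodes a protein with a pleckstrin homology domain, a domain type that Plek2 also has, and it keeps the kinase Akt from the membrane. It was at 6.63, 5.9 and 5.75 CPM with DMSO and at 5.61, 6.01 and 7.98 CPM with NUP-17d. The groups overlapped and the third NUP-17d culture stood above the others. The TMM log2 fold change of 0.099 (SE 0.128, edgeR adjusted p = 0.586, 95% interval -0.16 to 0.36) became -0.07 without that culture, and 0.37 under library totals. Perp (Entrez 64058, chr10:18845071-18857073) had 8, 15 and 21 expected counts with DMSO and 14, 17 and 10 with NUP-17d. These overlapped, and the 95% interval of its log2 fold change, from -1.05 to 0.36, allows a change in either direction.

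**Figure D3:**
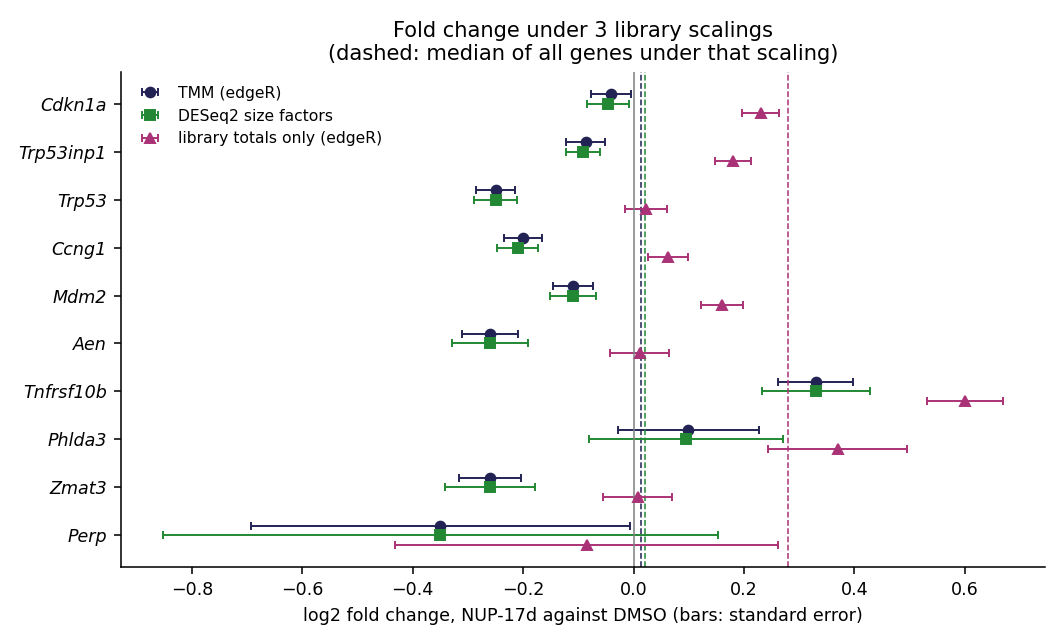
Log2 fold change of NUP-17d against DMSO for the 10 genes under TMM, DESeq2's size factors and library totals alone; bars are standard errors and dashed lines the medians of all genes (0.014, 0.02 and 0.28). Under TMM, Trp53, Mdm2, Ccng1, Zmat3 and Aen are called lower and Tnfrsf10b higher, and DESeq2 lies close to TMM, while under library totals none is called lower and Mdm2, Cdkn1a, Trp53inp1, Phlda3 and Tnfrsf10b are called higher.

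Summed over the 10 genes, the TMM-normalized level was 1893 to 1938 CPM in the DMSO cultures and 1757 to 1785 CPM in the NUP-17d cultures. Trp53inp1 made up 44% to 46.1% of it. By overlap of these levels alone, 6 of the 10 genes lay lower in every NUP-17d culture, where 23.2% of all genes did, and 1 lay higher, where 22.8% did. The sum and the overlap are given under TMM alone, and their direction depends on that scaling. Under library totals the median log2 fold change of the 10 genes was 0.11, beside 0.28 over all genes.

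To compare targets with p53 without any scaling of libraries, the deposited FPKM of each target was divided by that of Trp53 in the same culture. The ratio of Tnfrsf10b to Trp53 was 0.0456, 0.0407 and 0.045 with DMSO and 0.0664, 0.0598 and 0.0692 with NUP-17d, a geometric mean 48.6% higher. The Cdkn1a ratio was 1.32, 1.22 and 1.27 against 1.5, 1.4 and 1.49, so p21 RNA stood 14.9% higher (geometric mean) relative to p53 RNA. The ratios of Mdm2 (mean 0.464 with DMSO and 0.51 with NUP-17d), Trp53inp1 (1.24 and 1.38) and Phlda3 (0.0328 and 0.0414) also did not overlap. Each of these 5 differences had an exact 2-sided permutation p of 0.1, the smallest that 3 against 3 cultures allow, and an adjusted p of 0.18 over the 9 ratios. The ratios of Ccng1, Zmat3, Aen and Perp overlapped between the groups, with log2 differences of 0.037, -0.021, -0.018 and -0.015. Of all 12287 genes listed in every culture, 64.5% had a ratio to Trp53 that was higher in every NUP-17d culture and 5.47% one that was lower, so that 5 of 9 higher and 0 of 9 lower was near the share in genes at large.

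**Figure D4:**
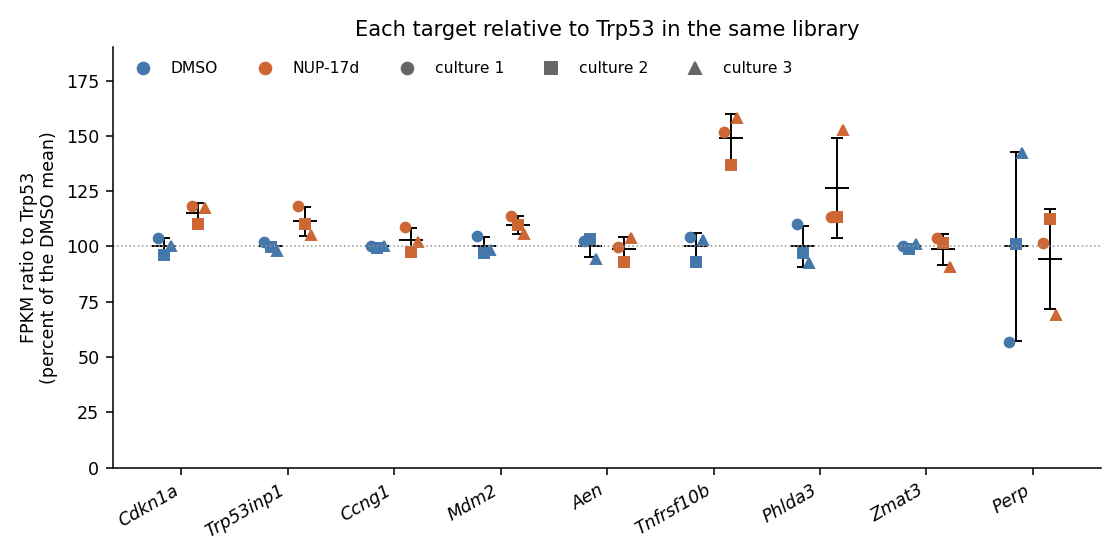
Ratio of the FPKM of each of the 9 targets to that of Trp53 in the same culture, as a percentage of the DMSO mean of that ratio; symbols are cultures and bars are the mean ± SD of each group (n = 3). The ratios of Mdm2, Cdkn1a, Trp53inp1, Phlda3 and Tnfrsf10b do not overlap between the groups, the geometric mean of Tnfrsf10b lying 48.6% above DMSO, and those of Ccng1, Zmat3, Aen and Perp overlap.

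The files also give for each gene a mean length over its transcripts, which moves when the mix of transcripts moves. For Trp53 it was 1798, 1795 and 1796 bases with DMSO and 1791, 1792 and 1792 bases with NUP-17d. The NUP-17d values were all shorter, with a mean difference of -4.53 bases, as they were for 5.7% of the 4910 genes with more than 1 transcript. For Trp53inp1 it was 5404, 5404 and 5403 bases with DMSO and 5405, 5406 and 5406 with NUP-17d, longer in every NUP-17d culture, as for 5.03% of those genes. The lengths of Mdm2, Cdkn1a and Aen overlapped between the groups.

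Beyond the 10 genes, 62 other genes described as direct p53 targets were examined, of which 60 were in the files and 57 were tested. Of these, 16 were called lower (18.9% of all genes were) and 6 higher (16.4% of all genes) under TMM, with a median log2 fold change of -0.052 beside 0.014 over all genes. Under library totals the split was 10 lower (5.34% of all genes) and 33 higher (68.7% of all genes), with a median of 0.21 beside 0.28. The 4 lowest p-values among those that fell belonged to Gadd45a, a growth arrest gene, which went from 1449 ± 33.3 to 690 ± 24.2 CPM, Btg2, an antiproliferative gene, from 477 ± 16.5 to 246 ± 4.01 CPM, Gpx1, a glutathione peroxidase gene, from 3127 ± 69.4 to 1773 ± 121 CPM, and the kinase gene Dyrk3, from 393 ± 13.9 to 241 ± 13.3 CPM. Their TMM log2 fold changes were -1.07, -0.95, -0.82 and -0.70 (edgeR adjusted p = 9.19e-18, 3.68e-17, 1.99e-14 and 8.49e-14), and they fell under library totals too, with -0.80, -0.69, -0.55 and -0.44. Under TMM these 4 changes were larger than that of any of the 10 genes called above. Under library totals Gpx1 and Dyrk3 changed by less than Tnfrsf10b (0.60). Those with the lowest p-values that rose were Ptpn14, a tyrosine phosphatase gene, from 392 ± 11 to 636 ± 28.2 CPM, Notch1 (log2 fold change 0.26), the death effector Bax (63.5 ± 1.52 to 73.9 ± 4.86 CPM) and Ephx1 (0.62). With genes chosen after their values were seen, Ppm1d, the phosphatase that switches p53 signalling off, had a TMM log2 fold change of -0.60, the death effector Bbc3 (Puma) of -0.43 and Sesn1 of -0.50, and these were -0.34, -0.17 and -0.24 under library totals. Tigar, chosen likewise, rose, with 0.39 under TMM and 0.66 under library totals. Within the death effectors Bax and Bbc3, therefore, 1 rose and 1 fell. Among other death genes of the list, Pmaip1, Apaf1, Bid and Fas were not called under TMM, and Pidd1 was called lower (-0.29). Under library totals Apaf1, Bid and Fas were called higher, and Pmaip1 and Pidd1 were not called.

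Of 34 genes whose products control p53, 31 were tested, and 11 were called lower (18.9% of all genes) and 1 higher (16.4%) under TMM, with a median log2 fold change of -0.041. Under library totals the split was 1 lower (5.34% of all genes) and 22 higher, a share near the 68.7% of all genes, with a median of 0.23. The gene that fell under both scalings among those named by rule was Usp7, which encodes an enzyme that removes ubiquitin from Mdm2 and p53, at 414 ± 4.03 CPM with DMSO and 280 ± 10.7 CPM with NUP-17d (TMM log2 fold change -0.57, edgeR adjusted p = 7.41e-13, and -0.30 under library totals). Mdm4, the partner of Mdm2 that blocks p53, went from 209 ± 1.87 to 175 ± 3.39 CPM (-0.25 under TMM and 0.017 under library totals). The acetyltransferase genes Ep300 and Crebbp had TMM log2 fold changes of -0.28 and -0.27, and -0.0082 and -0.0029 under library totals. Rpl23, a ribosomal protein gene whose product binds Mdm2, was the gene called higher, at a log2 fold change of 0.098 (edgeR adjusted p = 0.0443; range over its alternatives 1.20e-09 to 1), a call that DESeq2 did not make.

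Genes of the p21-DREAM axis, cell cycle genes that are known to be repressed when p53 raises p21, were examined as a readout downstream of Cdkn1a. Cdkn1a itself was not called under TMM (log2 fold change -0.041, edgeR adjusted p = 0.401) and was called higher under library totals (0.23). Whether p21 had a part in the change of this list was not tested. Of the 30 genes, 22 were called lower (18.9% of all genes) and 0 higher (16.4%) under TMM, with a median log2 fold change of -0.17. No further gene of the list was higher at an unadjusted p under 0.05, and DESeq2 called 0 higher. Under library totals 0 were lower (5.34% of all genes) and 16 higher (68.7%), with a median of 0.099 beside 0.28 over all genes. The lowest p-values belonged to the mitotic spindle genes Nusap1 (-0.31 under TMM and -0.044 under library totals), Cenpe (-0.28 and -0.013) and Tpx2 (-0.23 and 0.038), and to the cell cycle transcription factor gene Mybl2 (-0.30 and -0.034). Hemoglobin and the erythroid markers fell in the same cultures, and their part in the change of this list was not tested.

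**Figure D5:**
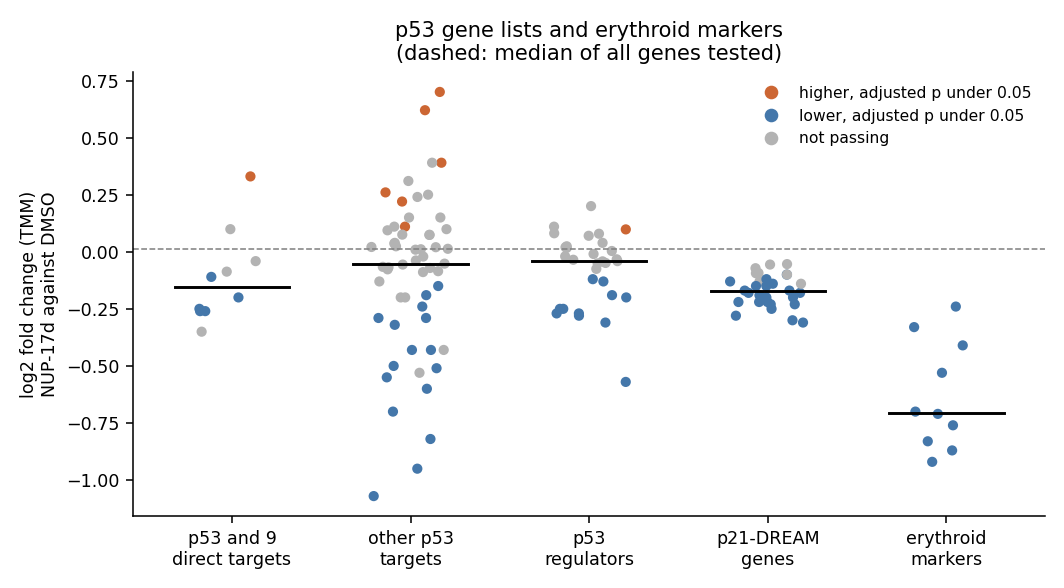
Log2 fold change of NUP-17d against DMSO under TMM for each tested gene of 5 lists; points are genes, coloured where edgeR called them, black bars are medians and the dashed line is the median of all genes (0.014). The medians are -0.16 for p53 and its 9 direct targets, -0.052 for other p53 targets, -0.041 for p53 regulators, -0.17 for p21-DREAM genes and -0.70 for erythroid markers, and under library totals they are 0.11, 0.21, 0.23, 0.099 and -0.44.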

How the data were processed

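Poly(A)-selected RNA of the 6 cultures was sequenced; per the labels cDNA was primed with random hexamers and run on a DNBseq platform, while the study's methods name a stranded kit and another instrument, so whether strand was counted is not known. The deposited expected counts per gene and the deposited FPKM values were made by the authors from reads mapped to RefSeq transcripts (mm10 per the labels); the aligner and the counting program are not given in the sources used here. The authors' transcript length column (unit: bases) is a mean over a gene's transcripts. Between 27.8% and 28.5% of the deposited expected counts were not whole, which marks reads shared with transcripts of other genes. Among the 10 genes these were Mdm2, Zmat3 and Tnfrsf10b in all 6 cultures, and Ccng1 and Trp53inp1 in some. Zmat3, Tnfrsf10b and Ccng1 have only 1 annotated transcript each, while Trp53, Cdkn1a and Aen, with 2 each, had whole counts throughout. A gene without a row in a culture was taken as 0.

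Expected counts were rounded to whole numbers and tested with edgeR 4.0.16 (R 4.3.3; filterByExpr, TMM, quasi-likelihood F-test, Benjamini-Hochberg over 12306 genes, threshold 0.05). SE and 95% intervals come from the same fit. Ratios to Trp53 used an exact 2-sided permutation test. The biological coefficient of variation was 2.95%, and counts of cultures of 1 group differed by 1.84 to 4.59 times sampling noise (chi-square per degree of freedom), so no culture was a copy of another. Alternatives were library totals, median-ratio size factors (RLE), DESeq2 1.42.0, no filter on low counts, no hemoglobin genes, limma 3.58.1 on log2(FPKM + 1) or log2(FPKM + 0.1) for genes of mean FPKM of at least 0.5, a minimum fold of 1.2, a replicate block and each culture left out. The fit was tested on simulated counts in which as many genes were raised as lowered and no shift of composition was built in. That test therefore did not cover the choice of scaling. The 10 genes and the lists were chosen with earlier results of these data known; the lists were drawn up from general knowledge and not by how their genes moved. The text names all 10 genes and, from each list, the 4 genes of lowest p called higher and the 4 called lower. Gene positions and promoter windows are from RefSeq on GRCm38.p6, the patch release that carries mm10 coordinates; Trp53 and its antisense neighbour Wrap53 do not overlap there.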

Additional observations from a re-analysis of the deposited data

How the results depend on the processing

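The choice of scaling turned the direction of 9 of the genes named, given below, and not of Tnfrsf10b, Gadd45a, Btg2, Usp7 or Ptpn14. Library totals, limma on log2(FPKM + 1) and limma on log2(FPKM + 0.1) called 5, 5 and 5 of the 10 genes higher and 0, 0 and 0 lower; of the other p53 targets 33, 34 and 34 higher and 10, 10 and 10 lower; of the regulators 22, 19 and 19 higher and 1, 1 and 1 lower; and of the p21-DREAM genes 16, 15 and 15 higher and 0, 0 and 0 lower. The log2 fold changes that turned positive there, in that order, were 0.022, 0.029 and 0.03 for Trp53, 0.16, 0.16 and 0.16 for Mdm2, 0.23 in each for Cdkn1a, 0.062, 0.066 and 0.067 for Ccng1, 0.0073, 0.0073 and 0.0088 for Zmat3, 0.18 in each for Trp53inp1, 0.011 in each for Aen, 0.017, 0.021 and 0.022 for Mdm4, and 0.038, 0.044 and 0.045 for Tpx2. The FPKM fits gave no value for Perp. Their construction, with no correction for composition, gives this shift of all genes. A minimum fold of 1.2 called 0 of the 10 genes higher and 0 lower, 1 and 10 other targets, 0 and 1 regulators and 0 and 0 p21-DREAM genes, and 936 genes in all (4346 without it). Median-ratio size factors and DESeq2 left 0 regulators higher; DESeq2 called 2971 genes in all.

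Leaving out 1 culture at a time gave 1 of the 10 genes higher and 4 to 6 lower, 5 to 8 and 15 to 16 other targets, 0 to 1 and 9 to 10 regulators, 0 and 20 to 25 p21-DREAM genes, and 5 to 6 ratios to Trp53 that did not overlap. Phlda3 then ran from -0.07 to 0.2 and the median of the 10 genes from -0.17 to -0.098, the latter without DMSO culture 3. Whether cultures of the same number were handled together is not known. Over all genes tested, their deviations from the group mean correlated at 0.0566, -0.00461 and -0.00317. With 3 cultures per group this does not settle whether they were paired. With the number as a replicate block 6 of the 10 genes were lower, Trp53inp1 being the added call (-0.088, edgeR adjusted p = 0.0287). In all, 4543 genes were called with the block and 4346 without it. Depth limits Perp and Phlda3.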
